A study of Mus musculus with 4 samples.

Results

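The 10 genes described here are the transcription factors Tead1, Tead2, Tead3 and Tead4, their coactivators Yap1 and Wwtr1 (which encodes TAZ), and 4 well-known targets of the complex, Ccn1, Ccn2, Ankrd1 and Amotl2. They were chosen by symbol, and the authors' deposited table holds 19 transcript rows for them among 40739 rows of 25177 gene symbols. The values come from nuclear RNA of a mouse fibroblast line, NIH-3T3, made to express H2B-mCherry, the rtTA3G transactivator and CDX2 under the TRE3G promoter, which responds to doxycycline. CDX2 is a homeobox transcription factor. 2 libraries came from cells given doxycycline for 6 h and 2 from cells of the same line given the solvent. All 4 therefore carried the transgene and the transactivator, and the labels name no group that received doxycycline without an inducible CDX2. The labels give 500 ng/ml as the dose in one place and the same figure per microlitre in another. Neither clonality of the line nor separate cultures for the replicates are stated in the labels, and the p-values may then measure technical spread only.

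TEAD proteins bind DNA but activate transcription poorly on their own, and YAP and TAZ, which do not bind DNA themselves, supply the activating domain. The kinases of the Hippo pathway phosphorylate YAP and TAZ, which keeps them in the cytoplasm and leads to their degradation. In spread fibroblasts on a stiff substrate YAP and TAZ are known to be nuclear and active, and the matricellular genes Ccn1 and Ccn2 are common readouts of that state. This control acts largely on the proteins, which RNA does not measure.

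DNA upstream of these genes was examined for the core letters of the TEAD binding motif, GGAATG, on either strand. Windows of 300 bases, from 250 before to 50 after an annotated start, were taken from RefSeq (build GRCm38.p6, which has the coordinates of mm10). No window was available for Tead1, Tead4 and Ccn2, and the other 7 of the 10 genes had at least 1. The motif stood in at least 1 window of 6 of these 7 genes, the exception being Tead2, and in 16.6% of the 27025 genes with a window. Counted by window it stood in 8 of 10 for these genes and in 14.7% of 32851 windows in all. Windows of Tead3 overlap each other, as do those of Wwtr1, and the 2 Wwtr1 windows hold the same match. The 250 bases before the start are printed for the 3 targets with a window and for the coactivator gene Yap1. Both orientations of the motif (GGAATG, or CATTCC for the other strand) are in capitals. Windows of Tead3 and of Wwtr1, the other coactivator gene, also hold matches and are not printed.
Ccn1 (chr3:145649986-145650235, minus strand): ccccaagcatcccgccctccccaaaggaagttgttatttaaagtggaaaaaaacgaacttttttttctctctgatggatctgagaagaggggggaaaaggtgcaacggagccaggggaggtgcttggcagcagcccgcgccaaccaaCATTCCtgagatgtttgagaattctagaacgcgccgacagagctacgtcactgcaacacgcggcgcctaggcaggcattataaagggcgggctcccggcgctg
Ankrd1 (chr19:36119845-36120094, minus strand): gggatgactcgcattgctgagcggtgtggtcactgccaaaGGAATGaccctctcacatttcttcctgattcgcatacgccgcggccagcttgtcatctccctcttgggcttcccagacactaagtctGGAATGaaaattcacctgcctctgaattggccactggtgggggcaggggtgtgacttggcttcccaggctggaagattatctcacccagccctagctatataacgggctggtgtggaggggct
Amotl2 (chr9:102717554-102717803, plus strand): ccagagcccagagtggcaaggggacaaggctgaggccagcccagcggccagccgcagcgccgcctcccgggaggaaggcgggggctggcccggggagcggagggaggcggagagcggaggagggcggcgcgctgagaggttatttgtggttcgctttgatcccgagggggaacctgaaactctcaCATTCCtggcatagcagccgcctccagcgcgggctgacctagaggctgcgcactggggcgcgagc
Yap1 (chr9:8004597-8004846, minus strand): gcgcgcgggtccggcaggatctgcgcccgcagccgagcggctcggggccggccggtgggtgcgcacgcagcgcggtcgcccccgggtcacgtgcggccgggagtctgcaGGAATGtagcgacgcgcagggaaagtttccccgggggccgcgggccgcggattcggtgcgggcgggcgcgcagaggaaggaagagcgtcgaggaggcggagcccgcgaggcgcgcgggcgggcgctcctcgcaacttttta
Ankrd1 had 2 matches, at -210 and -123 from the start, both on the strand of the gene. Ccn1 had 1 at -103 and Amotl2 1 at -65, both on the other strand. Yap1 had 1 at -141 on its own strand. Positions give the first base of the match as read along the strand of the gene, with the first transcribed base as 1.

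**Figure D1:**
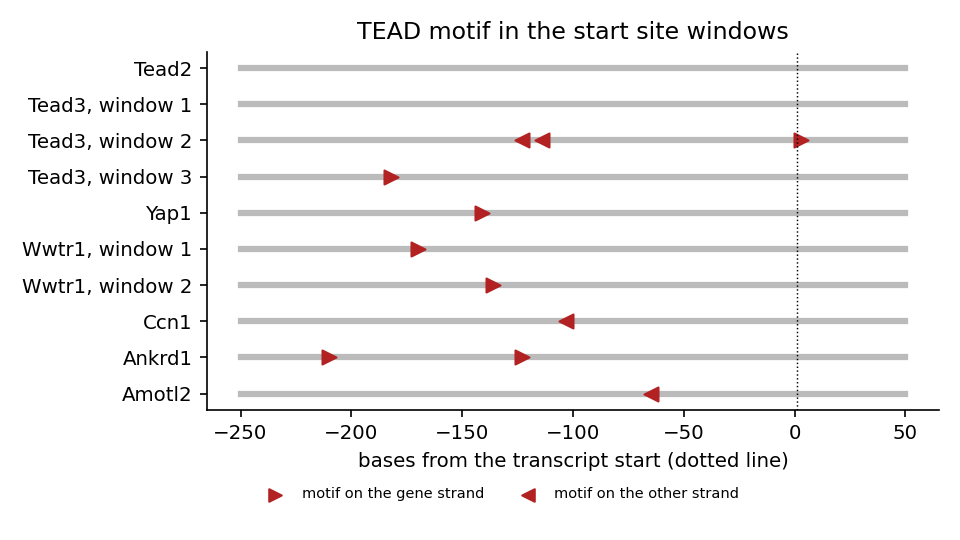
Matches of the TEAD motif in the 10 windows available for 7 of the genes; the x axis is the distance from the transcript start in bases, each grey bar is 1 window, and arrowheads give the strand. 8 of the 10 windows hold a match, and all matches but 1 in Tead3 lie before the start.

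The motif is a short string, and a match is a description of the letters, not of binding. Among tested genes it stood in a window of 15.0% of the 1115 genes that were higher with doxycycline and had a window, 13.9% of the 1281 lower ones and 14.1% of the 7331 others. The CDX letters TTTATNG, also searched on both strands, stood in 0 of the 10 windows of these genes and in 10.9% of all windows. Counted by gene they stood in 8.05% of tested genes with a window, so 0 among 7 genes is no departure from that share. Tead1, Tead4 and Ccn2 were not examined for lack of a window. Among higher, lower and uncalled genes with a window, the CDX letters stood in 8.52%, 8.20% and 7.95%.

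The induction itself was large. Cdx2 stood at 4.96 CPM (counts scaled to library size) without and 612 CPM with doxycycline, a 124-fold difference (95% interval 109 to 140) in the authors' deposited table, which does not part transgene from endogenous reads. The table gives a mean level and a difference for each transcript and no value per library, so levels by group here are geometric means worked out from those 2 numbers, with no spread of their own. They rest on an effective library of 45712476 counts (geometric mean). Genes with a geometric mean of at least 10 counts per library were tested, which left 12355, and a gene is called where the authors' adjusted p lies under 0.05. In bulk RNA, fewer cells making a transcript and less of it per cell cannot be told apart. Of 12 fibroblast markers, 12 were tested, with 8 lower and 0 higher in the authors' deposited table. That is 66.7% of the list called lower, beside 13.4% of all tested genes. In a stricter setting, with standard errors widened 2.08-fold, 2 stayed lower, beside 4.18% of all tested genes called in either direction. The summed level of the 12 markers was 7366 CPM without and 6096 CPM with doxycycline. Markers of other cell types were far lower: 1 of 7 epithelial, 1 of 5 intestinal, 1 of 5 trophoblast, 1 of 4 endothelial and 2 of 4 blood markers reached 10 counts, and their sums ran from 0.486 to 9.00 CPM. Of these 6 tested markers, Cdh1 of the epithelial list fell (-1.62 ± 0.22), and Cd14 of the blood list (0.55 ± 0.10) and Gata3 of the trophoblast list rose in the authors' deposited table. In the stricter setting Cdh1 kept its call, and Cd14 and Gata3 did not. Krt18, Cldn4, Fabp1, Tfap2c and Hbb-bs had no reads. The part of these marker changes in the results on these 10 genes was not tested.

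With doxycycline, Tead4 and Ccn2 fell, Ccn1 and Ankrd1 rose, and Tead1, Tead2, Tead3, Yap1, Wwtr1 and Amotl2 did not pass the test. That is 4 of 10 called in the authors' deposited table, beside 24.7% of all tested genes. By direction it is 2 higher, beside 11.3%, and 2 lower, beside 13.4%. The median log2 fold change of the 10 genes was -0.04, beside -0.0011 over all tested genes.

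**Figure D2:**
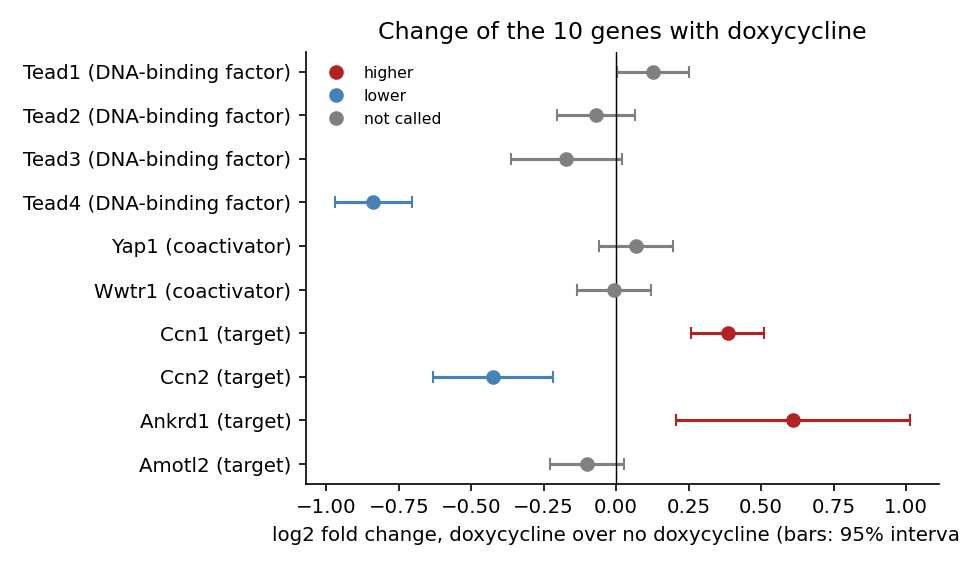
Log2 fold change of each of the 10 genes with its 95% interval, doxycycline over no doxycycline, coloured by call. Tead4 (-0.84) lies apart from the other Tead genes, and Ccn1 (0.38) and Ccn2 (-0.43) lie on opposite sides of 0.

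Tead4 (NM_011567, chromosome 6, 128227143 to 128300813, minus strand, mm10) is the TEAD factor needed for the trophectoderm of the early mouse embryo, and is also known from muscle. Its level was 67.4 CPM without and 37.7 CPM with doxycycline. The log2 fold change was -0.84 ± 0.067 (± standard error; adjusted p 4.97e-33) in the authors' deposited table, a level 44.1% lower (95% interval 38.7% to 49.0% lower). Its 2 transcript rows, which differ by 127 bases of exon and otherwise share their reads, stood at -0.84 each. Of all tested genes, 2.74% had a change of larger size in either direction. CDX2 is itself a trophectoderm factor, and of the trophoblast markers Gata3, another such factor, rose from 0.444 to 1.27 CPM (log2 fold change 1.51 ± 0.25) while Tead4 fell in the authors' deposited table. Gata3 was the 1 trophoblast marker of 5 with enough counts to be tested, and it was not called with standard errors widened 2.08-fold. Whether these changes are related was not tested.

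Tead1 (NM_001166584, chromosome 7, 112679356 to 112906784), broadly expressed and needed for heart growth in the embryo, stood at 119 CPM without and 129 CPM with doxycycline. Its log2 fold change of 0.13 ± 0.063 did not pass (adjusted p 0.208) in the authors' deposited table. Its call depends on the scale: with the median of the ribosomal protein genes set to 0 the value was 0.17 (adjusted p 0.0451), and with the trend of fold change on level removed it was 0.19 (adjusted p 0.0190). Tead2 (NM_001285498, chromosome 7, 45215753 to 45233619), known from early embryos and neural progenitors, was at 45.6 and 43.5 CPM, a difference of -0.07 ± 0.069 (adjusted p 0.730) in the authors' deposited table. Tead3 (NM_011566, chromosome 17, 28331673 to 28350805), known from placenta, was the least abundant at 8.00 and 7.11 CPM, a difference of -0.17 ± 0.098 (adjusted p 0.305) in the authors' deposited table. All 3 rows of each of these genes gave much the same value, with a widest range of 0.025 on the log2 scale, for Tead3.

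The change of Tead4 was set against that of each paralogue, a comparison that does not depend on the scaling of the libraries. Tead1 minus Tead4 was 0.96 on the log2 scale (95% interval 0.78 to 1.15). Tead2 minus Tead4 was 0.77 (0.58 to 0.96) and Tead3 minus Tead4 was 0.67 (0.43 to 0.90). None of these 3 intervals reached 0, also with standard errors widened 2.08-fold, where the nearest bound was 0.18. Among the other pairs, Tead1 lay above Tead2 by 0.20 (0.012 to 0.38) and above Tead3 by 0.30 (0.069 to 0.53), but both intervals held 0 with the widened errors. Tead2 and Tead3 differed by 0.10, with an interval of -0.13 to 0.34.

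Levels of the 4 factors were also compared per kilobase of exon. Without doxycycline Tead4 stood at 22.1 CPM per kb, next to Tead2 at 21.4, with Tead1 at 12.0 and Tead3 at 3.09. With doxycycline Tead4 was at 12.3 CPM per kb, below Tead2 at 20.4 and close to Tead1 at 13.1, while Tead3 was at 2.74. The table gives no error of a level, so neighbours in this order were not tested against each other. The order, the shares and the family sum also depend on the exon length used, and the RNA is nuclear. For Tead1 the length was 9878 bases. GENCODE gives 9964 bases for that transcript but 3047 for the Tead1 transcript NM_009346, and the shorter length would raise Tead1 per kilobase. The share of Tead4 in the sum of the family was 37.7% without and 25.4% with doxycycline, and that of Tead1 was 20.5% and 27.0%. The summed level was 58.5 and 48.6 CPM per kb, a log2 difference of -0.27 (95% interval -0.34 to -0.20, from the standard errors of the 4 genes taken as independent). The loss was 17.0% of the family's RNA, against 44.1% for Tead4 alone.

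**Figure D3:**
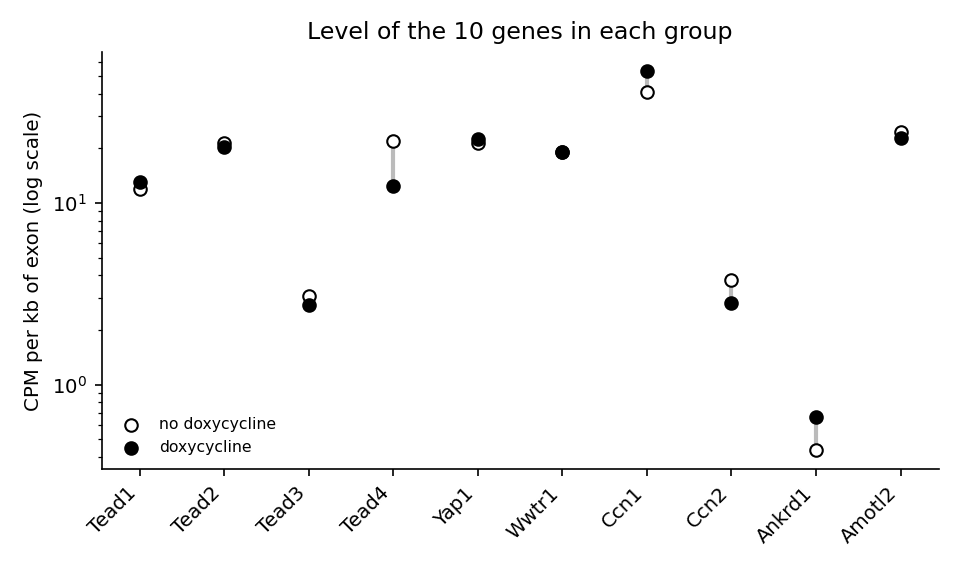
Level of each gene in CPM per kb of exon on a log axis, without (open) and with (filled) doxycycline, each point the geometric mean of 2 libraries. The open and filled points of Tead4 (22.1 and 12.3) are far apart, those of Tead2, Yap1 and Wwtr1 nearly coincide, and Ankrd1 is the lowest in both groups.

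Yap1 and Wwtr1 encode the paired coactivators. Yap1 (NM_001171147, chromosome 9, 7932001 to 8004596) was at 89.0 CPM without and 93.3 CPM with doxycycline, a log2 fold change of 0.07 ± 0.065 (adjusted p 0.700) in the authors' deposited table. Wwtr1 (NM_133784, chromosome 3, 57455644 to 57575876) was at 90.3 and 89.9 CPM, a log2 fold change of -0.0075 ± 0.065 (adjusted p 0.938) in the authors' deposited table. Their 95% intervals allow a change of -4.03% to 14.5% for Yap1 and of -8.88% to 8.61% for Wwtr1. The sign of Wwtr1 turned with the scale, to 0.036 with the ribosomal protein genes set to 0 and to 0.044 with the trend on level removed. Yap1 minus Wwtr1 was 0.08 (-0.10 to 0.26). Per kilobase they stood at 21.4 and 19.1 CPM per kb without doxycycline, so that their sum was 0.692 of that of the 4 Tead factors, and 0.853 with doxycycline. This ratio depends on the exon lengths used, as above. An exon of Gm20416, annotated by GENCODE on the other strand, shares 116 bases with Yap1. The libraries were directional, but no label says whether reads were counted by strand.

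The targets did not move together. Ccn1, formerly Cyr61, encodes a secreted matricellular protein that binds integrins. Its row (NM_010516, chromosome 3, 145646971 to 145649985) was at 82.5 CPM without and 108 CPM with doxycycline. This rise of 0.38 ± 0.064 on the log2 scale (adjusted p 7.02e-08) in the authors' deposited table is 30.6% (95% interval 19.6% to 42.5%). Ccn2, formerly Ctgf, encodes connective tissue growth factor, its closest relative among these genes. It was far less abundant, and its row (NM_010217, chromosome 10, 24595442 to 24598682) fell from 9.03 to 6.72 CPM, by 0.43 ± 0.11 on the log2 scale (adjusted p 8.15e-04) in the authors' deposited table, or by 25.5% (95% interval 14.0% to 35.5%). Ccn1 minus Ccn2 was 0.81 (0.57 to 1.05, and 0.30 to 1.32 with widened errors). Per kilobase Ccn1 was 10.8 times Ccn2 without and 19.0 times Ccn2 with doxycycline. Ccn2 shares 362 bases at its start with the noncoding transcript Gm15270 of the other strand. GENCODE places a further exon of Gm15270 over 194 bases within Ccn2. In the authors' deposited table Gm15270 stood at 0.645 CPM and -0.63 ± 0.28 (adjusted p 0.129), beside a mean of 7.79 CPM for Ccn2. Whether reads of these directional libraries were counted by strand is not stated. The value of Ccn2 is uncertain to the extent that reads were shared.

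Ankrd1 encodes a cardiac ankyrin repeat protein that shuttles between sarcomere and nucleus in muscle. It was the scarcest of the 10 genes, with a mean of 42.6 counts per library, and its row (NM_013468, chromosome 19, 36111965 to 36119844) rose from 0.764 to 1.17 CPM. The log2 fold change was 0.61 ± 0.21 (adjusted p 0.0238) in the authors' deposited table. This was the widest error among the 10, with a 95% interval of 1.15-fold to 2.02-fold. Amotl2 encodes an angiomotin, a scaffold that binds YAP and holds it out of the nucleus, and is thus a target that also acts on the pathway. Its row (NM_019764, chromosome 9, 102717804 to 102733417) was at 102 and 95.2 CPM, a log2 fold change of -0.10 ± 0.064 (adjusted p 0.400) in the authors' deposited table. Its interval allows a change of -14.5% to 1.81%. Ankrd1 minus Ccn1 was 0.23 (-0.20 to 0.65), an interval that includes 0, whereas Ccn1 minus Amotl2 was 0.49 (0.31 to 0.66). These pairs were added after the values were seen, together with Ankrd1 minus Ccn2 (1.04, 0.58 to 1.49) and Ccn2 minus Amotl2 (-0.32, -0.57 to -0.08). With widened standard errors the interval of Ccn2 minus Amotl2 included 0 (-0.83 to 0.18).

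**Figure D4:**
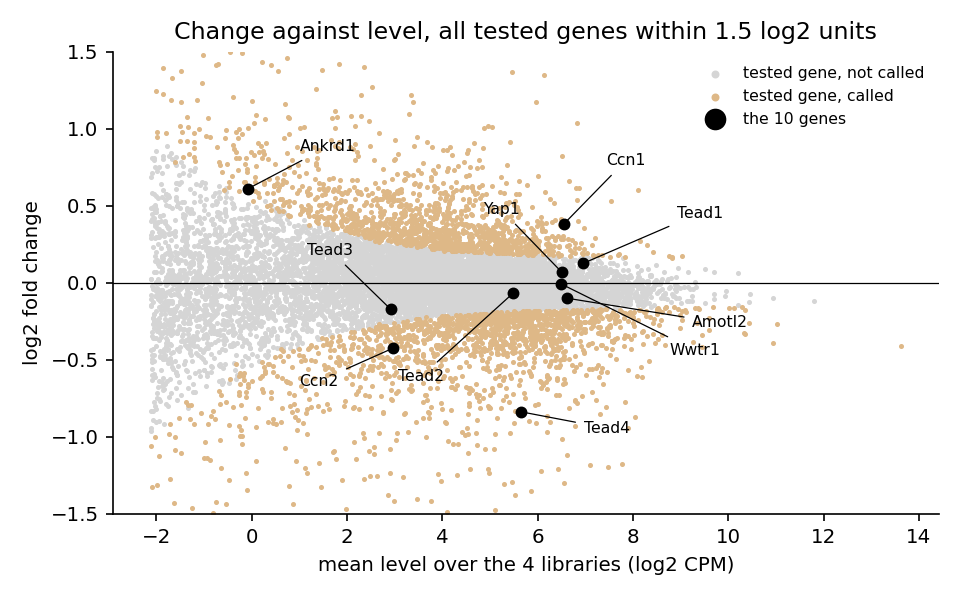
Log2 fold change against mean level (log2 CPM over the 4 libraries) for the tested genes, with the 10 genes in black; 68 genes beyond 1.5 log2 units are not shown. Ankrd1 lies at the low end of the level axis, where the band of uncalled genes is wide, and Tead4 lies well outside that band.

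The standard errors behind these calls were pooled over transcripts: over the 19541 rows with a mean level of at least 2 log2 CPM, 99.2% of the variation in log standard error followed from level and fold alone, so p-values in that range hardly use each gene's own replicates. Ankrd1, at -0.08 log2 CPM, lies below that range. With every standard error multiplied by 2.08 (the robust SD of t among tested genes), 4.18% of tested genes were called and Tead4 was the 1 member among them (adjusted p 4.82e-07), while Ccn1, Ccn2 and Ankrd1 were not (adjusted p 0.116, 0.668 and 0.981). The factor includes real changes, so it makes a stricter test and is no measure of replicate error.

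Other targets of YAP and TEAD also went both ways. Of 18 further genes of a target signature, 15 were tested. Of these, 4 rose and 6 fell by the authors' deposited table and 5 were not called, or 66.7% called beside 24.7% of all tested genes. Nuak2, a kinase of the AMPK family (0.80 ± 0.10, from 6.13 to 10.7 CPM), and F3, which encodes tissue factor (0.74 ± 0.091, from 8.75 to 14.6 CPM), had the largest rises of log2 fold change in the authors' deposited table. Asap1, an Arf GTPase-activating protein (-0.55 ± 0.064), and Axl, a receptor tyrosine kinase (-0.39 ± 0.059, from 697 to 533 CPM), had the smallest p of the falls in the authors' deposited table. The remaining called genes were Gadd45a and Arhgef17, which rose, and Fjx1, Crim1, Dock5 and Myof, which fell. Myof lost its call with the ribosomal protein genes set to 0 (-0.12, adjusted p 0.165) and with the trend on level removed (-0.06, adjusted p 0.728), and Gadd45a lost its call in the second setting (0.28, adjusted p 0.0740). Both lost it with widened standard errors too (adjusted p 0.981). The median log2 fold change of the 15 was 0.02. With widened errors 2 rose (Nuak2 and F3) and 1 fell (Asap1), beside 4.18% of all tested genes called. Lats2 and Ptpn14 belong to this list and to the Hippo genes below.

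Of 59 other genes of the Hippo pathway, 54 were tested. Of these, 7 rose and 6 fell by the authors' deposited table and 41 were not called. That is 24.1% called, close to the 24.7% of all tested genes, with a median log2 fold change of 0.03. Changes of the 7 core kinases and adaptors ran from -0.20 to 0.14. Only Sav1, the scaffold of the MST kinases, was called (-0.20 ± 0.069, adjusted p 0.0239) in the authors' deposited table. That is 14.3% called, beside 24.7% of all tested genes. The call of Sav1 was lost with the ribosomal protein genes set to 0 (-0.16, adjusted p 0.0978). The LATS kinase genes Lats1 (0.06 ± 0.067) and Lats2 (0.09 ± 0.067) were not called in the authors' deposited table.

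Upstream kinases held larger changes, from -0.53 to 0.54, though the genes at both ends of that range were not called. Of 10 tested, Mink1 (0.48 ± 0.067), Map4k3 (0.30 ± 0.072) and Taok3 (0.31 ± 0.079) rose and Map4k5 (-0.45 ± 0.072) fell in the authors' deposited table. Of 14 tested genes for junction and scaffold proteins, 2 rose, Rassf1 (0.35 ± 0.076) and Amot (0.28 ± 0.070), the angiomotin gene related to Amotl2. In the same list 3 fell in the authors' deposited table, namely Ptpn21 (-0.32 ± 0.071), Wwc1 (-0.32 ± 0.072), which encodes KIBRA, and Limd1 (-0.23 ± 0.068). In the STRIPAK phosphatase complex, which opposes the MST kinases, Sike1 (0.24 ± 0.079) was the 1 of 11 called, and among 10 genes for retention and turnover of YAP and TAZ the casein kinase gene Csnk1e (0.32 ± 0.070) was the 1 called in the authors' deposited table. Sike1 lost its call with the trend on level removed (0.21, adjusted p 0.0527) and with widened standard errors (adjusted p 0.981). In the order given, the shares called in these lists were 40.0%, 35.7%, 9.09% and 10.0%, beside 24.7% of all tested genes.

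Vgll3 and Vgll4 encode cofactors that bind TEAD in place of YAP, and Vgll4 is known to repress. Vgll3 fell by 0.70 ± 0.098 (adjusted p 4.55e-11), from 9.63 to 5.94 CPM, and in the authors' deposited table Vgll4 gave 0.07 ± 0.075 (adjusted p 0.742). Vgll1 and Vgll2 had no reads. With widened errors Vgll3 and Mink1 were the 2 of the 54 still called, beside 4.18% of all tested genes.

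**Figure D5:**
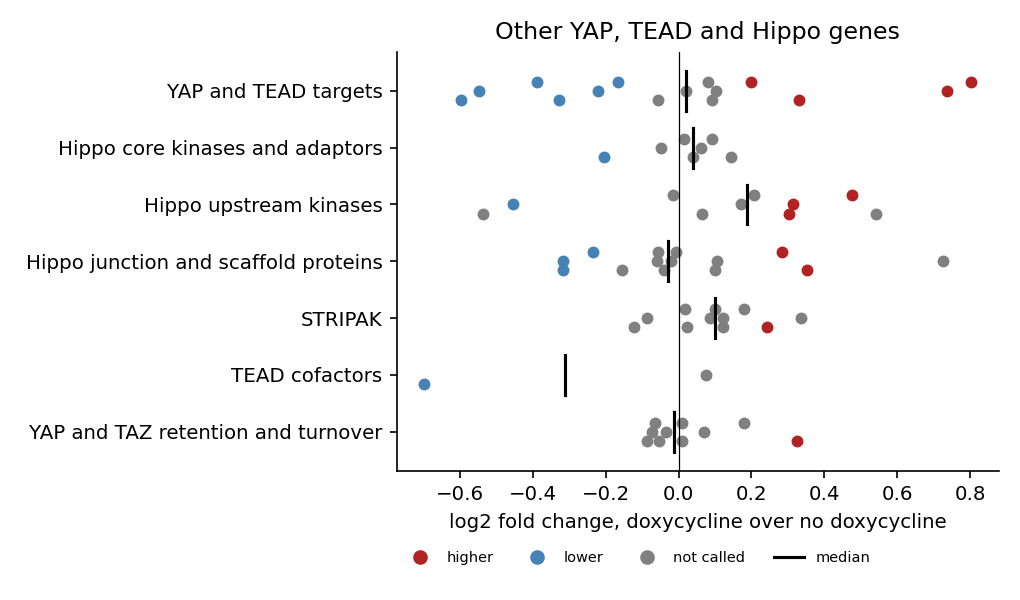
Log2 fold change of the tested genes of the YAP and TEAD target list and of 6 Hippo lists, 1 point per gene coloured by call, spread vertically for legibility, with the median as a black line. The target list runs from -0.60 to 0.80, whereas the core kinases and adaptors run from -0.20 to 0.14.

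Of 8 paralogues of the targets, 5 were tested and 1, Amot (given above), rose in the authors' deposited table. This 1 of 5 stands beside 24.7% of all tested genes called in either direction. Amot lost its call with widened standard errors (adjusted p 0.650), which left 0 of the 5 called, beside 4.18% of all tested genes. Ccn4 was at 44.4 and 41.5 CPM (-0.10 ± 0.069, adjusted p 0.494) and Ccn5 at 0.329 and 0.279 CPM (-0.24 ± 0.36, adjusted p 0.873) in the authors' deposited table. Ccn6 and Ankrd2 lay under 10 counts and Ccn3 had no reads. Ankrd23, a muscle ankyrin repeat gene like Ankrd1 and about as scarce, had a log2 fold change of 0.38 ± 0.18 (adjusted p 0.162) in the authors' deposited table. Amotl1 was at 72.1 and 77.3 CPM, 0.10 ± 0.065 (adjusted p 0.409), in the authors' deposited table.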

How the data were processed

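Nuclear RNA of 4 directional libraries, 2 with and 2 without doxycycline (500000 cells each, per the labels' protocols), was analysed. Tools and build are listed without their roles in the submitters' processing notes (limma, edgeR, HOMER 4.10, Picard, SAMtools 1.10, STAR 2.7.1a; mm10). The authors' deposited table gives, per the file headers, limma's log2 fold change, mean log2 expression, moderated t score, p-value and adjusted p-value for each RefSeq transcript, and other columns with positions and exon length. The shared lowest level (9211 rows, log2 fold change -0.21) fits rows without reads, with 0.5 counts added per library on a log2 CPM scale. No values per library were analysed here, so no count model was fitted and the authors' test stands as the test; the fit's covariates are not given in the sources used here.

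Standard errors are log2 fold change over t, and 95% intervals assume normal errors. The most abundant transcript row stands for a gene. Group levels are the mean level plus or minus 0.5 times the log2 fold change. Differences between genes take their errors as independent. The rescaled and widened alternatives use normal p-values with Benjamini-Hochberg adjustment over the rows of the table. The steps were run on simulated data with normal errors of the size of the deposited standard errors. Such data cannot show whether those standard errors are right. Python 3.11.15, pandas 2.3.3, scipy 1.17.1 and statsmodels 0.14.6 were used. Members, lists and motifs were chosen with earlier results of these data known. The text names the 10 members with all rows, Cdx2, up to 4 called genes per list with the smallest p (other called genes of the target list, the fifth junction gene and the paired Lats1, Lats2 and Vgll4 were named after their values were seen), paralogues, and overlapping genes. Cdh1, Cd14 and Gata3 are the called genes of the epithelial, blood and trophoblast lists. Target pairs other than Ccn1 with Ccn2, and the summed Tead level, were added after seeing the data.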

Additional observations from a re-analysis of the deposited data

How the results depend on the processing

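The count of 10 genes was 4 called in the main analysis and 1 with widened standard errors. The same setting took the count over all tested genes from 3047 to 517 (170 higher, 347 lower), that of the further targets from 10 to 3 and that of the Hippo genes from 13 to 2. Wwtr1 turned to 0.036 with the ribosomal protein genes set to 0 and to 0.044 with the trend on level removed. Setting the 82 ribosomal protein genes to 0 moved the share of rises among called genes from 45.7% to 59.1% (1917 higher, 1325 lower). Across the 7 alternatives to the fold changes and p-values, 1 of them added after seeing the data (Benjamini-Hochberg over the rows of the table), 63 of 70 values of the 10 genes kept their direction and side of the threshold, 3 lost the call, 2 gained it and 2 changed sign. A floor of 50 counts left out Ankrd1, so that 3 of 9 were called. No paired analysis was possible because the table holds no values per library; leaving out single libraries was not run for the same reason. Ankrd1 rests on a mean of 42.6 counts per library.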

Other observations

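The TEAD letters were also counted upstream of the other lists, as a description with no test. They stood in a window of 4 of 12 further target genes with a window (33.3%), namely Lats2, Axl, Crim1 and Ptpn14. Of these, Axl and Crim1 fell with doxycycline, and Lats2 and Ptpn14 did not pass. Asap1, Fjx1, Dock5, Arhgef17 and Nuak2, all called, had no window, nor had Ccdc80. A window of Crim1 also held the CDX letters, the 1 of the 12 genes to do so. The TEAD letters stood in 3 of 6 core Hippo genes, 6 of 13 genes for junction and scaffold proteins, 3 of 4 Vgll genes and 0 of 8 upstream kinases. They stood in 1 of 9 STRIPAK genes, 1 of 5 paralogues of the targets and 0 of 7 genes for retention and turnover. The share over all genes with a window was 16.6%.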
